A study of Mus musculus with 48 samples.

Results

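The 9 adipogenic transcription factors Pparg, Cebpa, Cebpb, Cebpd, Klf15, Ebf1, Ebf2, Zfp423 and Zfp467 were taken by gene symbol from a count table of 54532 genes in subcutaneous white adipose tissue (sWAT, the inguinal depot), and all 9 were among the 19977 genes that passed the expression filter. The libraries came from C57BL/6 mice, 8 months old, with no transgene or mutation named in the labels, and the study describes them as males. Ad-lib mice had food at all times. Twice-a-night (TAN) mice had food only in a pair of short windows early and late in the dark phase and ate slightly less per day than ad-lib mice, so that meal timing and intake cannot be told apart. Depots were collected at 12AM, 4AM, 8AM, 12PM, 4PM and 8PM, with 4 libraries per diet and time point, 48 in all, each time point holding its own animals. Nothing in the labels says whether libraries of a group came from separate cages, so the p-values given here measure the spread between these libraries.

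Adipogenesis, the conversion of fibroblast-like progenitors into fat cells, runs through a cascade of these factors. C/EBPβ and C/EBPδ act early after hormonal stimulation and raise PPARγ and C/EBPα, which activate each other and hold the mature adipocyte state. PPARγ is a ligand-activated nuclear receptor that binds DNA with RXR. KLF15 is a zinc finger factor that promotes expression of the insulin-responsive glucose transporter and responds to glucocorticoids. EBF1 and EBF2 prime the fat cell programme in progenitors, with EBF2 also marking the brown and beige lineage, and EBF1 has a separate role in B cells. ZFP423 commits progenitors to the white lineage, and ZFP467 favours fat over bone in stromal cells.

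The 9 genes lie on 7 chromosomes of GRCm38. Pparg spans chr6:115360951-115490399, Klf15 chr6:90462576-90475238 and Zfp467 chr6:48427697-48445825. Cebpa lies at chr7:35119293-35121928 and Cebpb at chr2:167688915-167690418, and Cebpd at chr16:15887286-15891031. Ebf1 spans chr11:44617317-45008091, Ebf2 chr14:67233292-67430918 and Zfp423 chr8:87661810-87959595. Zfp423 and Zfp467 are on the minus strand and the other members on the plus strand. GENCODE M21 gives Cebpb and Cebpd protein-coding transcripts of 1 exon, and gives Pparg 5 protein-coding transcripts of 5 to 8 exons. The γ1 and γ2 forms of PPARγ start from different promoters and were counted here as 1 gene, so their shares are not known.

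RefSeq promoter windows of 250 bases before to 50 bases after a transcript start (GRCm38.p6) were matched by symbol for 7 of the 9 members, 11 starts in all, with none for Cebpd and Ebf2. They were searched on both strands for the E-box bound by the clock and by bHLH factors (CACGTG), the CCAAT box (CCAAT), a palindromic C/EBP site (TTGCGCAA) and a D-box bound by DBP and its relatives (TTATGTAA). No pair of these overlapped within a member's window. The windows of the 3 factors that the comparisons between diets turn on are printed, each 5′ to 3′ on the gene's strand with matched motifs in capitals, together with the Pparg start farthest downstream, which gives the fat-enriched γ2 form. The first is Klf15 at chr6:90462326-90462625, followed by Cebpa at chr7:35119043-35119342, Pparg at chr6:115421816-115422115 and Ebf1 at chr11:44619978-44620277.
Klf15: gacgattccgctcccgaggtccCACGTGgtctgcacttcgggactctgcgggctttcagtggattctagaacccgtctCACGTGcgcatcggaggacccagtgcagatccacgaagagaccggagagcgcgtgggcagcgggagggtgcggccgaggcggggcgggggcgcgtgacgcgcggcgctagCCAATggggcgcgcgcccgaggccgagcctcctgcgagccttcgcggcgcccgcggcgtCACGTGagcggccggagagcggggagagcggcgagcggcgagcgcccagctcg
Cebpa: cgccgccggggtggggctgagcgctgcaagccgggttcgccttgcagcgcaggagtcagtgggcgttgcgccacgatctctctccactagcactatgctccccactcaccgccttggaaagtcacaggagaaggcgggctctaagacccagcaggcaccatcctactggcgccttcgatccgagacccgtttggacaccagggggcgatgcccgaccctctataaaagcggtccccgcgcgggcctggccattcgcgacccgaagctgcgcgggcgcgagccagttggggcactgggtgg
Pparg: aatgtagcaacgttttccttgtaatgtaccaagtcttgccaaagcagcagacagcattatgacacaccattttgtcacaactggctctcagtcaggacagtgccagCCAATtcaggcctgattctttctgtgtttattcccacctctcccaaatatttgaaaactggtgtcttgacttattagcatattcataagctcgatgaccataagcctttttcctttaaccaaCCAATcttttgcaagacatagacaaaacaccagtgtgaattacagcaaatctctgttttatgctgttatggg
Ebf1: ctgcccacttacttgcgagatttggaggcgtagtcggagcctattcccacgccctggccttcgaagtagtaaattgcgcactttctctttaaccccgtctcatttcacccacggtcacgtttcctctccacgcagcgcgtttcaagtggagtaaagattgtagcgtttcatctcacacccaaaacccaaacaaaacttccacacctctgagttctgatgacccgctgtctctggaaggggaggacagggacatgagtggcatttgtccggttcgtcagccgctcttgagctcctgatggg

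The Klf15 window held 3 E-boxes, which began 228, 172 and 3 bases before the start, and 1 CCAAT box. An E-box occurred in 7.15% of the 32851 promoter windows in the reference, and 3 or more in 0.0883% of them. Of the 11 member windows, 1 held an E-box and 3 held a CCAAT box (Klf15 and 2 of the Pparg starts), against 37.4% of all windows with a CCAAT box. The palindromic C/EBP site and the D-box, in 0.183% and 0.938% of all windows, occurred in 0 of the 11. The Cebpa and Ebf1 windows held none of the 4 motifs.

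Total counts were 15636378 to 29913310 per library, and the lowest member count was 7, for Ebf2 in 1 TAN 8PM library. Mature adipocyte markers summed to 5620 to 43800 CPM (counts scaled to library size and TMM factors) in every library, so that fat cells were present although the series text describes a stromal vascular fraction; the paper describes whole sWAT. Lymphocyte markers varied from 7.71 to 2320 CPM. TAN 8PM replicates 1 and 2 stood apart from the rest in the share of counts on processed pseudogenes, 1.57% and 1.67% against at most 1.01% elsewhere, and had 2 of the 3 lowest numbers of detected genes (15271 and 15866, with 15693 in TAN 4PM replicate 1) and 2 of the 3 lowest adipocyte marker sums (8010 and 5620 CPM). The time labels carry a conflict. Library values of 979 genes were held from a supplementary table of the study. Over these, each of the 48 libraries was closest to the column of the same diet and replicate number under a time 12 h away. The contrasts between diets thus hold the same libraries under either labelling, while every clock time below could be 12 h off. Times are given as on the sample labels.

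**Figure D1:**
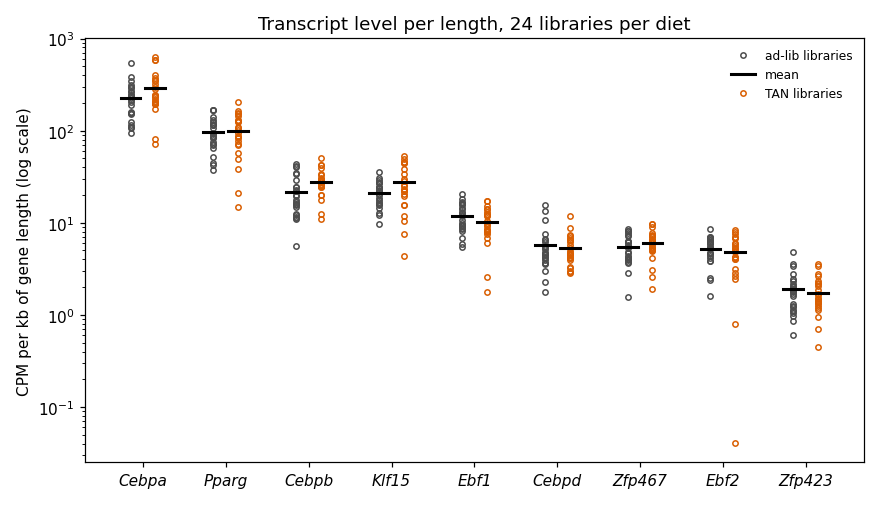
Transcript level per length of the 9 factors. Each circle is 1 library (24 per diet), bars are the mean of a diet, and the y axis is CPM per kb of gene length on a log scale; Cebpa stood highest and Zfp423 lowest, and the lowest Ebf2 value, 0.0405 CPM per kb, came from a TAN 8PM library.

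Levels differed widely between the factors. Scaled to gene length, Cebpa stood highest in ad-lib mice at 227 ± 103 CPM per kb (SD, n = 24), above Pparg at 97.6 ± 38.9 CPM per kb, and the level of Cebpa exceeded that of Pparg in 48 of 48 libraries. In TAN mice the levels were 287 ± 145 and 99.7 ± 46.6 CPM per kb. The early factor Cebpb had 21.6 ± 10.6 CPM per kb in ad-lib libraries and Klf15 21.1 ± 6.51 CPM per kb, and these neighbours did not differ beyond their spread, with Cebpb above Klf15 in 20 of 48 libraries. Ebf1 followed at 11.8 ± 3.98 CPM per kb. Cebpd, Zfp467 and Ebf2 formed a close group in ad-lib libraries at 5.69 ± 3.26, 5.45 ± 1.82 and 5.25 ± 1.66 CPM per kb, and none of their gaps exceeded the larger SD. Zfp423, the commitment factor, was lowest at 1.90 ± 0.965 CPM per kb. The plot of levels per length shows the same order in TAN mice except within that close group, where Zfp467 averaged 6.06 ± 2.0, Cebpd 5.29 ± 2.08 and Ebf2 4.80 ± 2.12 CPM per kb. The FPKM that the authors deposited as group means ran, for Cebpa, from 146 in the ad-lib 8PM group to 442 in the TAN 4PM group, and for Klf15 from 14.5 in the TAN 4AM group to 43.2 in the TAN 4PM group. Genes on the opposite strand overlap Cebpb (Tmem189, up to 1590 counts), Cebpd (Spidr, up to 587) and Cebpa (Gm45091, up to 322), and since the strandedness of the counting is not given, reads of these pairs cannot be told apart.

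**Figure D2:**
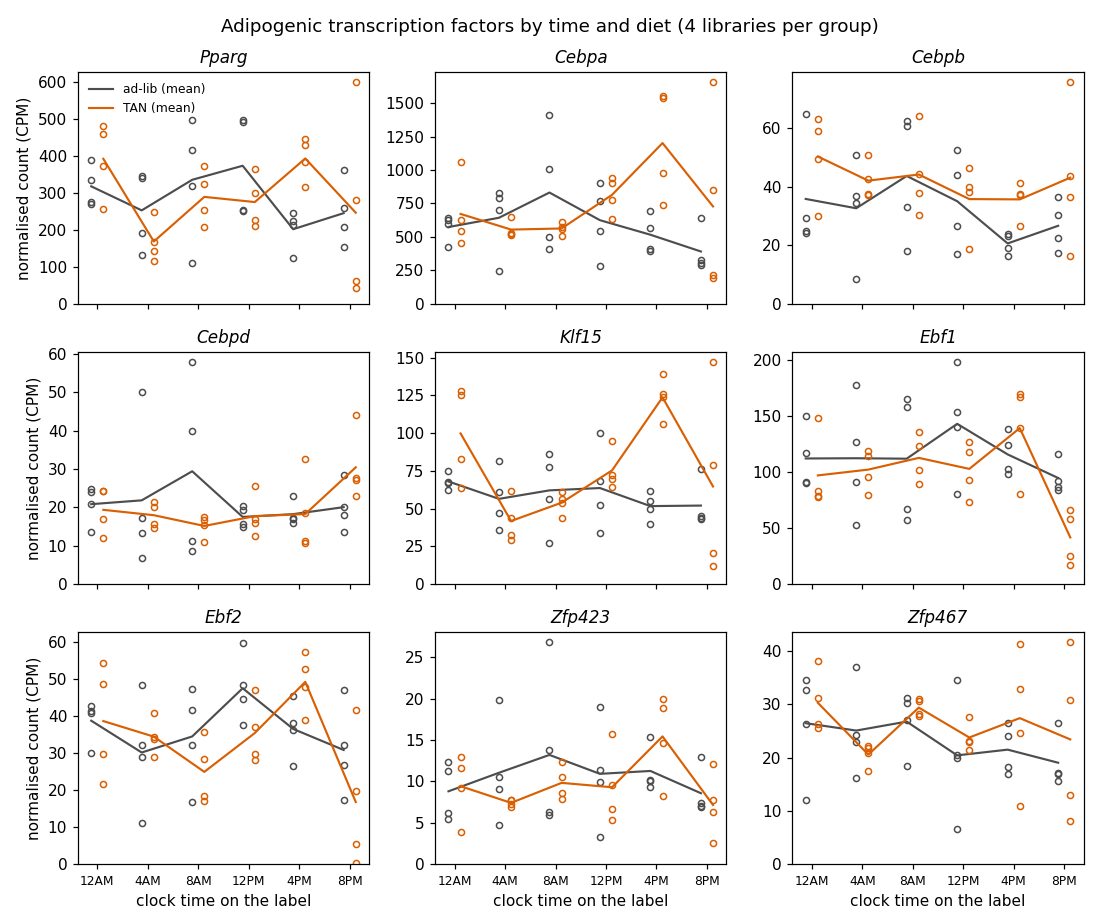
Normalised counts of each factor by the clock time on the label. Circles are single libraries, 4 per diet and time, and lines join group means; at 4PM the 4 TAN libraries of Klf15 lie between 106 and 139 CPM, above the ad-lib libraries at 40.1 to 61.8 CPM, and at 8PM the TAN libraries spread widely.

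The comparison of TAN with ad-lib mice at each clock time asks whether, and when in the day, these factors differed between the diets. At 4PM, 1 of the 9 factors passed the test. Klf15 had 106, 139, 126 and 124 CPM in the TAN libraries and 49.6, 55.2, 40.1 and 61.8 CPM in the ad-lib libraries, and the groups did not overlap. Its log2 fold change was 1.26 ± 0.42 (SE; edgeR quasi-likelihood test, Benjamini-Hochberg adjusted p = 0.0385 over all tested genes). Across all genes 15.3% were called at 4PM, 6.54% as higher in TAN, so 1 call among 9 is near the background share.

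Cebpa, Pparg and Cebpb were also without overlap at 4PM and higher in TAN, though none passed the adjusted test. Cebpa had 740, 1540, 1550 and 976 CPM in TAN against 397, 694, 411 and 564 CPM in ad-lib libraries, and its log2 fold change was 1.22 ± 0.45 (adjusted p = 0.0584). Pparg had 430, 384, 315 and 445 CPM against 225, 246, 124 and 213 CPM, a log2 fold change of 0.96 ± 0.47 (adjusted p = 0.143). For both factors of the adipocyte core, then, all 4 TAN libraries stood above all 4 ad-lib libraries. Cebpb had 26.6, 37.3, 41.3 and 37.6 CPM against 16.5, 23.3, 19.0 and 23.8 CPM, a log2 fold change of 0.79 ± 0.42 (adjusted p = 0.185). In all 4 of the 9 factors were higher in TAN without overlap at 4PM, against 12.8% of all tested genes (30.6% in either direction), and all 9 had a positive log2 fold change, with a median of 0.45 against -0.09 over all tested genes. The remaining 5 (Ebf1, Ebf2, Zfp423, Zfp467 and Cebpd) had log2 fold changes from 0.0035 to 0.45. A fit of the 8 libraries of 4PM alone, which does not share the spread of the other groups, called Klf15 (adjusted p = 0.00135), Cebpa (0.0128), Pparg (0.0135) and Cebpb (0.0228), and 27.2% of the 16196 genes tested in that fit.

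Cell type markers moved with this comparison, in which 15.3% of all genes were called. The 6 mature adipocyte markers summed to 24300 to 36100 CPM in TAN and 11400 to 15900 CPM in ad-lib libraries at 4PM, with 1 of 6 called higher. The 10 lymphocyte markers, none of them at 0 in any 4PM library, summed to 9.08 to 309 CPM in TAN and 877 to 1520 CPM in ad-lib libraries, with 3 of 10 called lower. Macrophage markers summed to 345 to 1560 CPM in TAN and 1270 to 2040 CPM in ad-lib libraries, with 1 of 6 called lower. Since neither the lymphocyte nor the adipocyte sums overlapped between the diets, diet and tissue composition cannot be told apart at 4PM, and in bulk tissue fewer cells of a type and less RNA per cell cannot be told apart either. With the lymphocyte markers as a covariate, Klf15 had a log2 fold change of 0.48 (adjusted p = 0.588) and 0 of all tested genes were called at 4PM; with the adipocyte markers as a covariate it was 0.31 (adjusted p = 0.629). Leaving out any 1 of the 8 libraries of 4PM lost the call, with log2 fold changes of 1.18 to 1.37 and adjusted p up to 0.114.

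**Figure D3:**
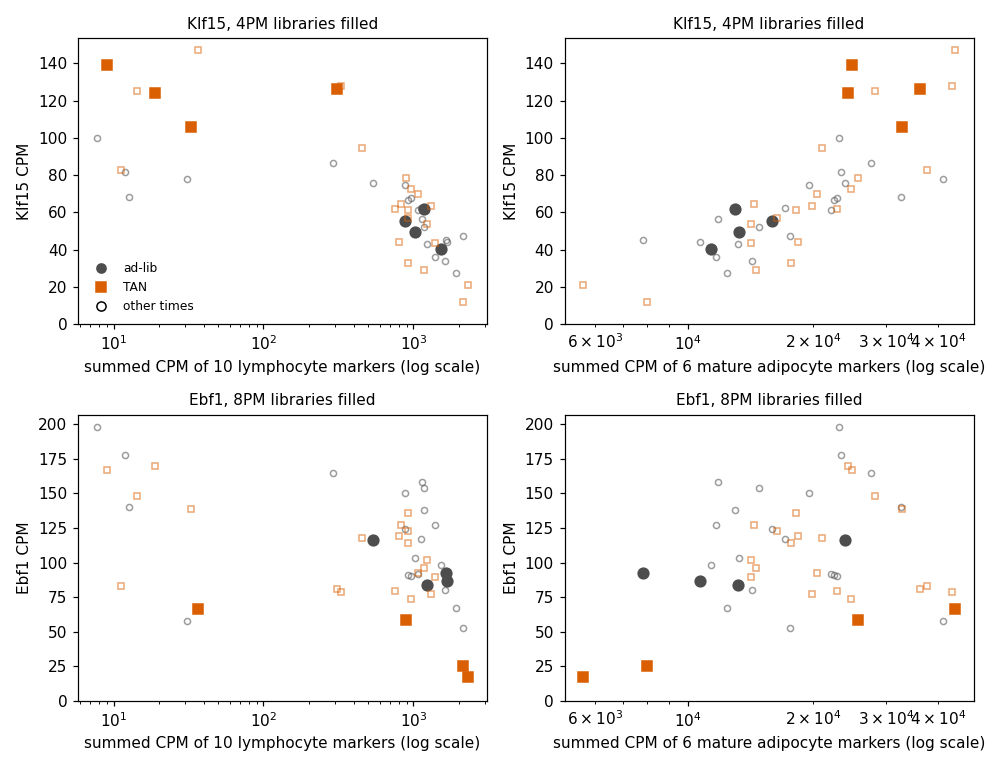
Klf15 (upper row) and Ebf1 (lower row) in CPM against the summed CPM of the lymphocyte or the mature adipocyte markers, 1 point per library on a log x axis. Filled points are the 4PM libraries for Klf15 and the 8PM libraries for Ebf1, circles are ad-lib and squares TAN; the 4PM groups separate on both x axes, while at 8PM the TAN libraries reach below and above the ad-lib libraries on both x axes and all 4 lie below the ad-lib libraries in Ebf1.

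At 8PM, Ebf1 was the 1 factor that changed, and it fell in TAN. It had 25.0, 17.1, 58.2 and 66.2 CPM in TAN libraries against 92.4, 83.8, 86.5 and 116 CPM in ad-lib libraries, without overlap, as for 16.1% of all tested genes. The log2 fold change was -1.19 ± 0.36 (adjusted p = 0.0281). Over all genes 11.7% were called at 8PM, 7.91% as lower in TAN. Its relative Ebf2 had 5.57, 0.281, 19.8 and 41.5 CPM in TAN and 17.3, 32.1, 26.8 and 47.1 CPM in ad-lib libraries, which overlap, and a log2 fold change of -0.88 ± 0.55 (adjusted p = 0.309). The 2 lowest values of both EBF factors came from TAN replicates 1 and 2, the libraries that stand apart. Without that pair, an alternative chosen after seeing the data, Ebf1 had a log2 fold change of -0.61 (adjusted p = 0.293), with the remaining TAN values of 58.2 and 66.2 CPM still below the lowest ad-lib value of 83.8 CPM. Ebf1 also lost the call when any 1 of ad-lib replicates 1, 3 and 4 or TAN replicates 1 and 2 of 8PM was left out (adjusted p = 0.0549, 0.0521, 0.0655, 0.0953 and 0.101), and in a fit of the 8PM libraries alone (-1.16, adjusted p = 0.193). With the lymphocyte or the adipocyte markers as a covariate it was called, at -1.38 (adjusted p = 0.00264) and -1.35 (adjusted p = 0.00334), and so was Ebf2 (-1.37, adjusted p = 0.0375, and -1.65, adjusted p = 0.00482), where 19.4% and 24.8% of all genes were called. The endothelial markers summed to 154 to 285 CPM in TAN and 346 to 496 CPM in ad-lib libraries at 8PM, without overlap. Diet and this part of tissue composition thus cannot be told apart for Ebf1 at 8PM. A fit with the endothelial markers as a covariate was not run.

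The same pair of libraries bore on the central factors at 8PM. Klf15 had 12.1 and 20.9 CPM in TAN replicates 1 and 2, and 78.7 and 147 CPM in replicates 3 and 4, against 43.0 to 76.0 CPM in ad-lib libraries. Cebpa had 213 and 191 CPM in the first pair and 848 and 1660 CPM in the other, against 287 to 644 CPM. Pparg had 62.4, 44.1, 280 and 600 CPM, against 153 to 363 CPM. TAN libraries thus lay both below and above the ad-lib range for all 3 factors. With all 4 libraries the log2 fold changes were 0.31 ± 0.41 for Klf15, 0.89 ± 0.45 for Cebpa and 0.01 ± 0.46 for Pparg (adjusted p = 0.682, 0.188 and 0.998). Without TAN replicates 1 and 2, Cebpa (1.67, adjusted p = 0.0131) and Klf15 (1.11, adjusted p = 0.036) were called higher in TAN at 8PM, where 10.8% of all genes were called in either direction. Adipocyte markers summed to 8010 and 5620 CPM in the pair and 25600 and 43800 CPM in the other 2 TAN libraries, lymphocyte markers to 2150 and 2320 against 889 and 36.5 CPM. With the lymphocyte markers as a covariate, Klf15, Cebpa and Pparg were not called at 8PM, and with the adipocyte markers as a covariate, chosen after seeing the data, Pparg was called lower in TAN (-0.63, adjusted p = 0.0287), as were 24.8% of all genes in either direction. The other 3 factors overlapped between the diets at 8PM, with log2 fold changes of 0.60 ± 0.44 for Cebpd, 0.30 ± 0.38 for Zfp467 and -0.26 ± 0.47 for Zfp423, and Cebpb likewise with 0.69 ± 0.42.

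**Figure D4:**
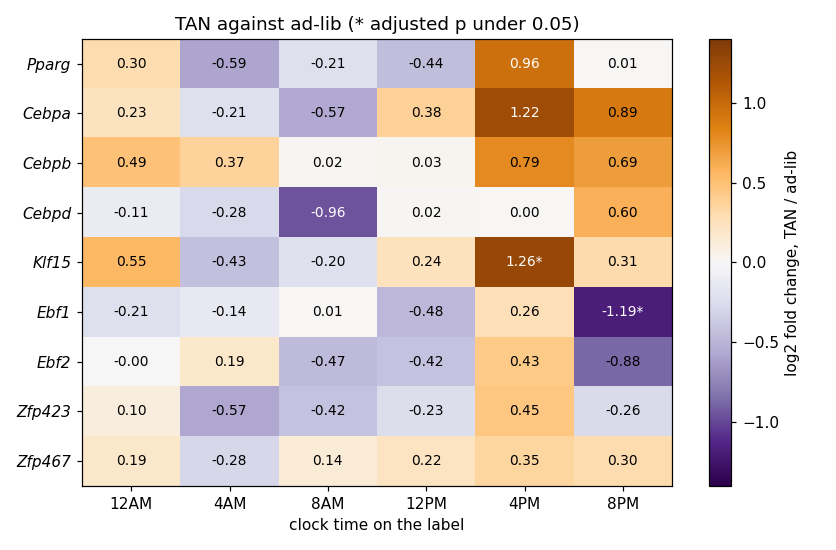
Log2 fold change of TAN against ad-lib for the 9 factors at the 6 clock times, from the fit of all 48 libraries. Colour and number give the fold change and an asterisk an adjusted p under 0.05; Klf15 at 4PM (1.26) and Ebf1 at 8PM (-1.19) carry one, and the 4PM column is positive for all 9 factors.

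At the 4 other clock times 0 of the 9 factors passed the adjusted test, with 0.150%, 0%, 0.0150% and 0.0901% of all genes called at 12AM, 4AM, 8AM and 12PM. At an unadjusted p under 0.05, reached by 17.5%, 2.64%, 6.58% and 7.37% of all genes at these times, there was 1 factor, Cebpd at 8AM (log2 fold change -0.96 ± 0.44, adjusted p = 0.734), where the ad-lib libraries spread from 8.50 to 57.9 CPM and the TAN libraries from 10.9 to 17.5 CPM. At 12AM Klf15 had 63.4 to 128 CPM in TAN and 62.6 to 74.8 CPM in ad-lib libraries. At 4AM Pparg had 115 to 249 CPM in TAN and 131 to 347 CPM in ad-lib libraries, with a log2 fold change of -0.59 ± 0.47 (adjusted p = 1). No factor was without overlap between diets at these 4 times, against 9.13%, 3.09%, 3.07% and 4.84% of all tested genes at 12AM, 4AM, 8AM and 12PM.

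Averaged over the 6 time points, 0 of the 9 factors differed between the diets, against 5.42% of all genes called. Cebpb came nearest, with a log2 fold change of 0.40 ± 0.17 (unadjusted p = 0.025, adjusted p = 0.162), followed by Ebf1 at -0.29 ± 0.14 (0.0497 and 0.232). Pparg had a mean log2 fold change of 0.01 ± 0.19. The median over the 9 factors was 0.0055 against -0.08 over all tested genes. The TAN effect differed between time points for 0 of the 9 factors and for 8.98% of all genes. The lowest adjusted p was 0.204, for Cebpa (edgeR quasi-likelihood test). At an unadjusted p under 0.05 there were 0 factors, against 30.2% of all genes. By limma voom 1 factor was called, Ebf2, where 22.6% of all genes were called. Without TAN 8PM replicates 1 and 2, Cebpa and Klf15 passed the test of the mean and the test of the difference between time points. Their mean log2 fold changes were 0.45 (adjusted p = 0.0426) and 0.42 (adjusted p = 0.025). Of all genes tested in that fit, 12.3% passed the test of the mean and 17.4% that of the difference.

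**Figure D5:**
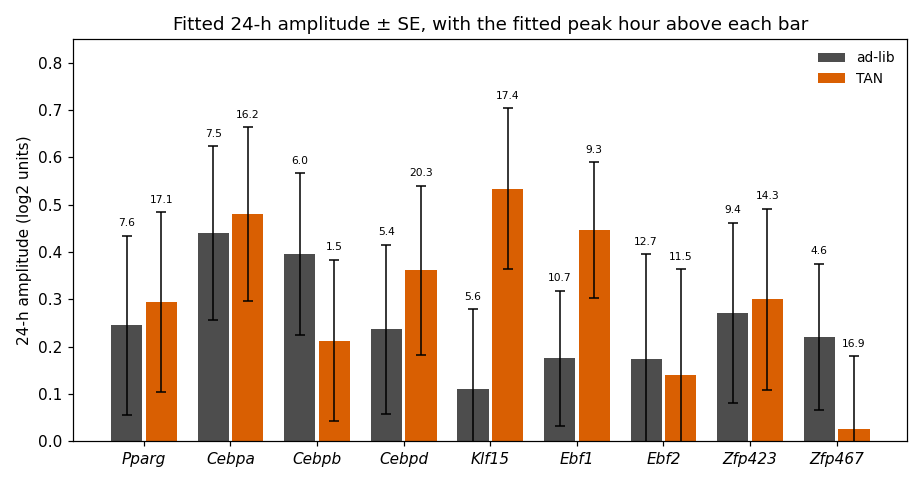
Fitted 24-h amplitude of each factor in each diet, in log2 units from the mean to the peak, with its SE as error bars and the fitted peak hour on the label's clock above each bar. The largest amplitude is that of Klf15 in TAN (0.53, peak at hour 17.4), and in ad-lib mice that of Cebpa (0.44, peak at hour 7.5).

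A 24-h cosine was fitted to the 6 group means of each diet. No factor had a rhythm in ad-lib mice, where 0.0801% of all genes were called, and 0 of 9 passed in TAN mice, where 19.8% of all genes did. Klf15 (amplitude 0.53 ± 0.17 in log2 units, peak at hour 17.4, adjusted p = 0.0578) and Ebf1 (0.45 ± 0.14, hour 9.3, adjusted p = 0.0612) came nearest in TAN. The median amplitude of the 9 factors was 0.24 in ad-lib and 0.30 in TAN, against 0.27 and 0.40 over all tested genes. At unadjusted p under 0.05 there were 0 factors in ad-lib and 3 in TAN (Cebpa, Klf15 and Ebf1), against 11.4% and 35.1% of all genes.

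The rhythm differed between the diets for 1 of 9 factors, Cebpa, against 20.2% of all genes. Its ad-lib group means ran from 391 ± 170 CPM at 8PM (SD, n = 4) to 833 ± 469 CPM at 8AM, and its TAN means from 555 ± 60.8 CPM at 4AM to 1200 ± 408 CPM at 4PM. The fitted peak was at hour 7.5 in ad-lib (amplitude 0.44 ± 0.18) and at hour 16.2 in TAN (0.48 ± 0.18), and the difference between the diets had an amplitude of 0.84 ± 0.26 (adjusted p = 0.0491). This call is at the threshold and held in 20 of 48 fits that left out 1 library, with adjusted p from 0.0133 to 0.122. It was lost with the lymphocyte markers as a covariate (adjusted p = 0.219), while without TAN 8PM replicates 1 and 2 the amplitude of the difference was 1.06 (adjusted p = 0.00172), and Klf15 (0.87, adjusted p = 0.0019) and Pparg (0.77, adjusted p = 0.0182) were called too, 3 of 9 where 28.8% of all genes were called.

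A test of any variation over the 6 time points called Klf15 (adjusted p = 0.0354) and Ebf1 (adjusted p = 0.0155) in TAN mice, 2 of 9 against 23.0% of all genes. Klf15 group means in TAN ran from 41.8 ± 14.7 CPM at 4AM to 124 ± 13.5 CPM at 4PM, with 99.8 ± 31.8 CPM at 12AM, and those of Ebf1 from 41.6 ± 24.2 CPM at 8PM to 139 ± 41.3 CPM at 4PM. In ad-lib mice 0 of 9 factors passed, against 0.0551% of all genes, and Klf15 means lay between 51.7 ± 9.20 and 68.0 ± 5.04 CPM. Ebf1 lost its call without TAN 8PM replicate 1 or replicate 2 (adjusted p up to 0.0696) and had an adjusted p of 0.247 without both. Klf15 lost its call when any 1 of 9 TAN libraries was left out (replicates 3 and 4 of 12AM, 1, 2 and 3 of 4AM, and all 4 of 4PM; adjusted p up to 0.0656), and without TAN 8PM replicates 1 and 2 it was 0.00222.

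The clock genes give the hour scale of these peaks. In TAN mice the fitted peak of Arntl, the activator of the clock, was at hour 6.2, that of Nr1d1 at 15.1 and that of Dbp at 18.1, and in ad-lib mice they were at 5.5, 13.1 and 17.8, where Arntl did not pass the test (adjusted p = 0.0944). In mice Arntl transcripts are known to peak around the start of the light phase and those of Dbp towards its end. Under the other labelling the TAN peaks of these 3 genes would be at hours 18.2, 3.1 and 6.1, and that of Klf15 at 5.4.

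Of 24 further regulators that promote adipogenesis, 23 passed the filter. At 4PM, where 15.3% of all genes were called, 0 of these were called higher and 1 lower in TAN. The latter was Creb1, a cAMP-responsive factor upstream of Cebpb (log2 fold change -0.89 ± 0.23, adjusted p = 0.0154). At 8PM, where 11.7% of all genes were called, 2 fell, the coactivator gene Ppargc1a (-1.56 ± 0.49, adjusted p = 0.0341) and the glucocorticoid receptor gene Nr3c1 (-0.71 ± 0.23, adjusted p = 0.0385). Their median log2 fold changes were 0.15 and -0.09, against -0.09 and -0.10 over all tested genes. In TAN 4 of 23 had a 24-h rhythm and in ad-lib 0 of 23, against 19.8% and 0.0801% of all genes, and the rhythm differed between the diets for 7 of 23, against 20.2%.

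Of 24 regulators that oppose adipogenesis, all tested, 3 fell and 1 rose at 4PM, where 15.3% of all genes were called. Trib2, a pseudokinase that promotes breakdown of C/EBPα, fell by 1.41 on the log2 scale (SE 0.33, adjusted p = 0.00933), as did Klf7 (-1.08 ± 0.38, adjusted p = 0.0464) and Klf3 (-0.58 ± 0.19, adjusted p = 0.0328). Twist1, a bHLH factor of mesenchymal cells, rose (1.21 ± 0.40, adjusted p = 0.0385). At 8PM, where 11.7% of all genes were called, Klf7 fell by 1.84 on the log2 scale (SE 0.39, adjusted p = 0.00367) and Zfp521, an antagonist of EBF1 and of the Zfp423 programme, by 1.37 (SE 0.36, adjusted p = 0.0136). The median log2 fold change of the 24 regulators was -0.13 at 4PM and 0.10 at 8PM, against -0.09 and -0.10 over all tested genes. Klf7 was also the 1 regulator of this list that differed in the mean over the day (-0.51 ± 0.15, adjusted p = 0.0436) and in the TAN effect between time points (adjusted p = 0.0125). Of all genes, 5.42% were called in the mean over the day and 8.98% in the TAN effect between time points.

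Of 24 adipocyte targets of PPARγ and C/EBPα, 23 were found by symbol and tested. Their median log2 fold change at 4PM was 0.97, against -0.09 over all tested genes. In TAN 5 rose and 0 fell at 4PM, where 15.3% of all genes were called, 6.54% as higher. The largest were Cidea, a lipid droplet protein of brown and beige fat (1.72 ± 0.42, adjusted p = 0.0119), Retn (1.56 ± 0.42, adjusted p = 0.0173), Agpat2 (1.45 ± 0.45, adjusted p = 0.0278) and Fabp4, the fatty acid carrier (1.44 ± 0.45, adjusted p = 0.031). In the mean over the day, where 5.42% of all genes were called, 4 rose and 0 fell, namely Cidea (1.19 ± 0.17, adjusted p = 1.4e-05), Agpat2 (0.97 ± 0.18, adjusted p = 0.000978), Gpd1 (0.80 ± 0.18, adjusted p = 0.00775) and Slc2a4, the insulin-responsive glucose transporter (0.62 ± 0.18, adjusted p = 0.0368). At 8PM, where 11.7% of all genes were called, 1 fell, Angptl4, an inhibitor of lipoprotein lipase (-2.03 ± 0.42, adjusted p = 0.00341). Of this list 6 genes are also the mature adipocyte markers, whose sums differed at 4PM as given above. Of 10 glucocorticoid targets 9 were tested, and 7 had a rhythm in TAN (19.8% of all genes) and 1 in ad-lib mice (0.0801%), led in TAN by Tsc22d3, Mt1 and Fkbp5, while the rhythm differed between the diets for 2 of 9 (20.2% of all genes); the median TAN amplitude of this list was 0.74 in log2 units.

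Likeness over the 12 group means set the factors into pairs. Ebf1 and Ebf2 moved most alike (Pearson r of log2 CPM = 0.948, n = 12 group means), followed by Pparg and Klf15 (0.836) and Cebpa and Klf15 (0.759), whereas Cebpd ran opposite to Ebf1 (-0.846) and Ebf2 (-0.722). The TAN 8PM group mean, which holds replicates 1 and 2, was the lowest for Ebf1 (41.6 CPM) and Ebf2 (16.8 CPM) and the highest for Cebpd (30.4 CPM). The r of these factors, and of the genes closest to Ebf1 and Ebf2, was not tested without that group. All these values share libraries, scaling and tissue composition, and are descriptions. Over the same means the mature adipocyte markers followed Klf15 (0.879), Pparg (0.856) and Cebpa (0.739) more closely than Ebf1 (0.441) or Cebpd (-0.334). Outside the list, and among 11460 candidate genes, the genes most like Pparg were Mgme1 (0.950), Gnb5 (0.937) and Cav1 (0.929), those most like Cebpa were Kctd17 (0.963), Smo (0.938) and Oaf (0.927), and those most like Klf15 were Carhsp1 (0.942), Pmp22 (0.937) and Tcea1-ps1 (0.922). Ebf1 was closest to Ric3 (0.982), Hgf (0.977) and Map4k5 (0.976), and Ebf2 to Pla1a (0.994), Yes1 (0.989) and Tmeff2 (0.987). Zfp423 was closest to Eepd1 (0.900), Fam114a1 (0.898) and Cavin1 (0.896), Zfp467 to Foxk2 (0.905), Hoxc6 (0.880) and Mtif3 (0.876). Cebpb was closest to Gm13340 (0.875), Gm10053 (0.846) and Egln3 (0.842), and Cebpd to Gm10073 (0.923), Bcas2 (0.910) and Rpl37 (0.906).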

How the data were processed

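The authors selected poly-A RNA from sWAT for paired-end Illumina sequencing. They deposited raw counts per gene for 48 libraries, without normalization, and FPKM as group means of 4 libraries. Submitters' processing notes name TopHat 1.3.3 and DESeq2 1.20.0, while the counting tool and strandedness are not given in the sources used here. Groups, times and replicate numbers came from the sample labels, and all sample columns were used (0 left out). No 2 libraries held identical counts.

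Genes were kept by filterByExpr (minimum count 10), which left all 9 members. Libraries were scaled with TMM in edgeR 4.0.16 (R 4.3.3), and CPM, log2 CPM (prior count 2) and CPM per kb were computed from the deposited counts and gene lengths. One robust quasi-likelihood model of 12 groups of diet and time gave contrasts of TAN minus ad-lib at each time and on average, F tests of the difference between times and of variation over time, and a 24-h cosine and sine contrast in each diet and between the diets. A gene was called at a Benjamini-Hochberg adjusted p under 0.05 over all tested genes, at any fold change. SEs of fold changes and amplitudes were derived from the F statistics. For TAN against ad-lib at each time the study used limma and edgeR. Alternatives here were limma 3.58.1 voom and DESeq2 1.42.0, which the study names for another comparison.

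The 9 members, the gene lists, marker lists and tests were chosen with earlier results of these data known. By rule, all 9 members were named, from other lists at most 4 called genes per comparison by fold change, and for likeness the 3 genes of highest r with a mean of at least 5 CPM. Marker lists were mature adipocyte, progenitor, lymphocyte, skeletal muscle, macrophage, endothelial and epithelial. Alternatives were other scaling, filters, tools, thresholds, marker covariates, separate fits, a replicate block and leaving out each library. Same-numbered libraries of the diets were checked for pairing over 5000 genes. 10 of 24 pairs had a residual correlation above 0.1 (median -0.0127, range -0.586 to 0.844), so the numbers were not taken to pair animals. The model was tested on simulated counts before use. Depth limits the precision of low counts, such as the 7 counts of Ebf2 in 1 library. Reads, proteins and other assays of the study were not analysed here.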

Additional observations from a re-analysis of the deposited data

Results flagged for a closer look

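In groups of 4 libraries a member's highest or lowest value was set against the rest by Dixon's test, and 9 of 108 groups (8.33%) had a library that stood apart, where chance gives about 1 in 20. Ad-lib 8PM replicate 4 was such a library for 4 factors, with Cebpa at 644 CPM (next 329), Klf15 at 76.0 CPM (next 45.0), Zfp423 at 13.0 CPM (next 7.40) and Zfp467 at 26.5 CPM (next 17.1), and its adipocyte marker sum was 23800 CPM against 7800 to 13200 in the other 3. Zfp423 was also high in ad-lib 4PM replicate 4, at 15.4 CPM (next 10.2). In ad-lib 12AM replicate 3, Cebpb was high at 64.9 CPM (next 29.2) and Ebf2 low at 30.0 CPM (next 40.8). In TAN mice, Cebpa was high in 4AM replicate 4 at 646 CPM (next 532), and Ebf1 in 12AM replicate 4 at 148 CPM (next 83.4). The part of marker levels in these values was not tested. Klf15 at 4PM and Ebf1 at 8PM had no such library in either diet. Because the test sets 1 library against the rest, a pair of low libraries in a group can mask each other. Ebf1 had such a pair in TAN 8PM replicates 1 and 2, at 25.0 and 17.1 CPM against 58.2 and 66.2 CPM.

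The 24-h rhythm of Cebpa differed between the diets by its own test, with an amplitude of the difference of 0.835 in log2 units (adjusted p = 0.0491, edgeR quasi-likelihood test). The call was lost with the replicate block (0.781, adjusted p = 0.0562), with limma voom (0.629, adjusted p = 0.149) and in 28 of 48 fits that left out 1 library.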

How the results depend on the processing

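Directions of the called factors were the same in every alternative that gave a value. Percentages in brackets give the share of all tested genes called in the same setting. At 4PM, where 1 factor was called, there were 0 without a filter on low counts (4.96%) and with the lymphocyte (0%) or adipocyte (0.160%) covariate. There were 2 with at least 10 counts in every library (25.2%), DESeq2 (22.1%) or the muscle covariate (17.5%), 3 without TAN 8PM libraries 1 and 2 (20.3%) or at unadjusted p (33.2%), and 4 in a fit of that time alone (27.2%). At 8PM, also with 1, there were 0 in a fit of that time alone (0.340%), 2 with limma voom (18.6%), the lymphocyte covariate (19.4%) or without that pair (10.8%), and 3 with the adipocyte covariate (24.8%). At 8AM unadjusted p (6.58%) gave 1 against 0. For the mean over the day, 0 became 2 without the pair (12.3%) and 2 at unadjusted p (21.5%). For effects differing between times, 0 became 1 with voom (Ebf2, 22.6%) and 2 without the pair (17.4%). For rhythms in TAN, 0 became 1 with RLE factors, voom, or the lymphocyte or muscle covariate, 2 with at least 10 counts in every library, and 3 without the pair, with the adipocyte covariate or at unadjusted p. For rhythms differing between diets, 1 became 0 without the filter (11.1%), with voom (30.5%), or with the lymphocyte (16.4%) or adipocyte (21.7%) covariate. It became 3 without the pair (28.8%) and 2 at unadjusted p (33.6%). For variation in TAN, 2 became 1 without the filter (8.89%), with the lymphocyte covariate (18.1%) or in a fit per diet (19.8%). It became 3 with voom (Klf15, Ebf1 and Ebf2, 33.8%) and without the pair (Pparg, Cebpa and Klf15, 18.4%), and 4 with the adipocyte covariate (24.3%). The cause of these shifts was not tested. DESeq2 was run for the contrasts at each time and on average, not for the tests of rhythm or variation. The fits without the pair and with the adipocyte covariate were chosen after seeing the data.

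With the replicate block, rhythms differing between diets fell from 1 factor to 0 (Cebpa amplitude 0.781, adjusted p = 0.0562), where 19.0% of all genes were called. No other count changed. Over the 48 fits that each left out 1 library, called factors ranged from 0 to 2 at 4PM and at 8PM. The range was the same for rhythms in TAN and for rhythms differing between diets. It was 1 to 5 for variation in TAN, and the other comparisons had 0. In the main fit 15.3% of all genes were called at 4PM, 11.7% at 8PM and 23.0% for variation in TAN. For rhythms in TAN the share was 19.8%, and for rhythms differing between diets 20.2%. Shares for the fits that left out 1 library are not given here.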

Other observations

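Some markers of other cell types were also called at the times when factors were called. Over all genes 15.3% were called at 4PM, and 11.7% at 8PM, 7.91% as lower in TAN. At 8PM 3 of 5 endothelial markers fell in TAN, namely Cdh5 (log2 fold change -1.23 ± 0.42, adjusted p = 0.0488), Kdr (-1.20 ± 0.38, adjusted p = 0.0367) and Pecam1 (-0.77 ± 0.21, adjusted p = 0.0167; edgeR quasi-likelihood test), and at 4PM Pecam1 alone (-0.67 ± 0.21, adjusted p = 0.0283). Of 6 macrophage markers 1 fell at each time, Csf1r at 4PM (-1.24 ± 0.33, adjusted p = 0.0159) and Mrc1 at 8PM (-1.58 ± 0.42, adjusted p = 0.0156). Of 10 progenitor markers 3 fell at 8PM, Cd55 (-1.35 ± 0.36, adjusted p = 0.0153), Pdgfra (-1.07 ± 0.32, adjusted p = 0.0259) and Pdgfrb (-1.01 ± 0.28, adjusted p = 0.0208), and at 4PM 2 fell, Icam1 (-2.03 ± 0.59, adjusted p = 0.0224) and Cd55 (-1.37 ± 0.36, adjusted p = 0.0151), while the median log2 fold change of the 10 was 0.24 at 4PM and -0.32 at 8PM. Skeletal muscle markers, at 4.46 to 5860 CPM over all libraries, had 0 of 8 called at either time, and epithelial markers summed to at most 12.4 CPM in any library, with Epcam called lower at 4PM (-4.97 ± 1.42, adjusted p = 0.0211) and Krt14 at 0 counts in all 16 libraries of 4PM and 8PM. Epcam held 0 counts in 3 of the TAN libraries of 4PM and at most 9 in the other, against 55 to 105 counts in the ad-lib libraries.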
